A study of Mus musculus with 16 samples.

Results

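Oxidative phosphorylation genes were taken as the gene rows whose symbols start with Nduf, Sdh, Uqcr, Cox4, Cox5, Cox6, Cox7, Cox8 or Atp5, together with the protein-coding mt-Nd, mt-Co, mt-Atp and mt-Cytb genes. The rule uses symbols alone and returned 111 of the 32285 genes counted. Of these, 98 lie in the nuclear genome and 13 in the mitochondrial genome. By symbol, the nuclear genes comprise 36 of complex I, 4 of complex II, 8 of complex III, 20 of complex IV, 17 of complex V, 12 assembly factors with an Ndufaf or Sdhaf symbol, and Ndufb1-ps. The mitochondrial genes comprise 7 of complex I, 1 of complex III, 3 of complex IV and 2 of complex V.

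The genes were measured by droplet-based 3′ single-cell RNA-seq in primary bone marrow stromal cell cultures of 12-week-old C57BL/6J mice, kept for 21 days in osteogenic medium with 10 mM β-glycerophosphate. Per the study, mice of all genotypes carried floxed Fgf23. Cultures came from mice with intact Dmp1 and no Cre transgene (WT) and mice lacking Dmp1 in all tissues, also without Cre (Dmp1KO). Others came from mice with Fgf23 deleted by a Cre transgene that is driven by the Dmp1 promoter (Fgf23cKO). The last came from mice carrying both changes (Dmp1KO/Fgf23cKO, abbreviated DKO). Cre was thus present in Fgf23cKO and DKO only. Dmp1 encodes a matrix protein of osteocytes and Fgf23 a phosphate-lowering hormone of bone, so the Cre line deletes Fgf23 in mature bone-forming cells and not in all cells. Each genotype had 3 cultures, marked by an oligonucleotide tag, pooled, and run in 1 droplet reaction of its own. Genotype and reaction therefore cannot be told apart, and the spread between the tagged cultures of a genotype holds no spread between reactions. Counts were analysed for 3 WT, 3 Fgf23cKO, 2 Dmp1KO and 3 DKO cultures. The first Dmp1KO culture was not analysed here, and 4 further samples, numbered 4 and read as the untagged cells of each pool, entered no main test.

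Oxidative phosphorylation passes electrons from NADH and succinate through complexes I to IV to oxygen, and uses the proton gradient this builds to make ATP at complex V. Nearly all subunits are encoded in the nucleus and imported, while the mitochondrial genome encodes core subunits of complexes I, III, IV and V and none of complex II. Macrophages and bone-forming cells are both known to shift between this pathway and glycolysis as they mature or are activated.

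The 15 samples held 17793 cells, and no cell barcode was shared between samples of a genotype. Cells were grouped from their expression, with the 111 genes kept out of the features used for grouping, and groups were named from marker lists. The percent of mitochondrial UMIs per cell was regressed out first, so the mitochondrial genes entered the grouping in that way. Stromal-like cells (885 in tagged cultures) were led by collagen and matrix genes, and myeloid-like cells (9477) by macrophage genes. The stromal markers summed to 35350 to 135100 CPM (UMIs scaled to a fixed library total) in stromal-like and 182.1 to 523 in myeloid-like cells, and the myeloid markers to 43430 to 58770 in myeloid-like and 3948 to 9425 in stromal-like cells. Dmp1 was read 442 to 1770 times in each WT culture and 0 and 3 times in the Dmp1KO cultures, and 26 to 76 times in the DKO cultures, below the 152 to 1177 of Fgf23cKO. Fgf23 was read at most 8 times in any sample, so its deletion could not be checked. Depth followed genotype in myeloid-like cells, with median unique molecular identifier (UMI) counts per cell of 7482.5 to 7962.5 in WT, 20330 to 24117.5 in Dmp1KO, 35392 to 36695 in DKO and 35639.5 to 39972 in Fgf23cKO. The clusters that make up the myeloid-like cells differed by genotype. Cluster 0 held 77% of the WT cells, and cluster 1 held 54.4% of the Fgf23cKO and 78.7% of the DKO cells. Cluster 3, led by Itgax, Mmp12 and Dcstamp, held 35% of the Dmp1KO cells. Clusters 4 and 5 also had high myeloid marker sums but stayed unnamed, and 81.8% and 88.2% of their cells were Dmp1KO.

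UMIs of each gene were summed per culture and class, and expressed as CPM with library sizes scaled by trimmed-mean factors (TMM). These are shares of a culture's RNA and are not scaled by gene length, so levels were compared between genotypes and not between genes. A gene was called at an adjusted p under 0.1 in edgeR's quasi-likelihood test with Benjamini-Hochberg adjustment over all genes tested. All 4 comparisons were fitted together, and the comparisons against WT share the WT cultures. Of the 111 genes, 107 passed the filter on low counts in myeloid-like and 108 in stromal-like cells. Cox7b2, Cox8b and Cox8c had 8, 26 and 1 UMIs in all cells.

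The balance between nuclear and mitochondrial subunit RNA set the genotypes apart in both classes. In myeloid-like cells the ratio of summed nuclear to summed mitochondrial subunit CPM was 0.834, 0.809 and 0.837 in the WT cultures. It was 0.749 and 0.733 in Dmp1KO, 0.510, 0.487 and 0.554 in Fgf23cKO, and 0.420, 0.432 and 0.461 in DKO. No pair of genotypes overlapped, and the order from low to high was DKO, Fgf23cKO, Dmp1KO, WT. In stromal-like cells the ratios were 0.913, 0.934 and 0.915 in WT and 0.648 and 0.674 in Dmp1KO. They were 0.502, 0.619 and 0.488 in Fgf23cKO and 0.438, 0.483 and 0.449 in DKO, so the order was the same and again without overlap, although Fgf23cKO culture 3 and DKO culture 2 lay close together. The ratio needs no scaling between cultures. With every cell thinned to 1300 UMIs, which evens the depth and leaves out 668 WT, 350 Fgf23cKO, 423 Dmp1KO and 327 DKO cells that were shallower, the means were 0.739 in WT, 0.665 in Dmp1KO, 0.485 in Fgf23cKO and 0.398 in DKO myeloid-like cells and 0.588, 0.534, 0.374 and 0.321 in stromal-like cells. The order of the means was the same, but in stromal-like cells Fgf23cKO, at 0.234, 0.456 and 0.432, then overlapped DKO, at 0.249, 0.308 and 0.406.

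**Figure D1:**
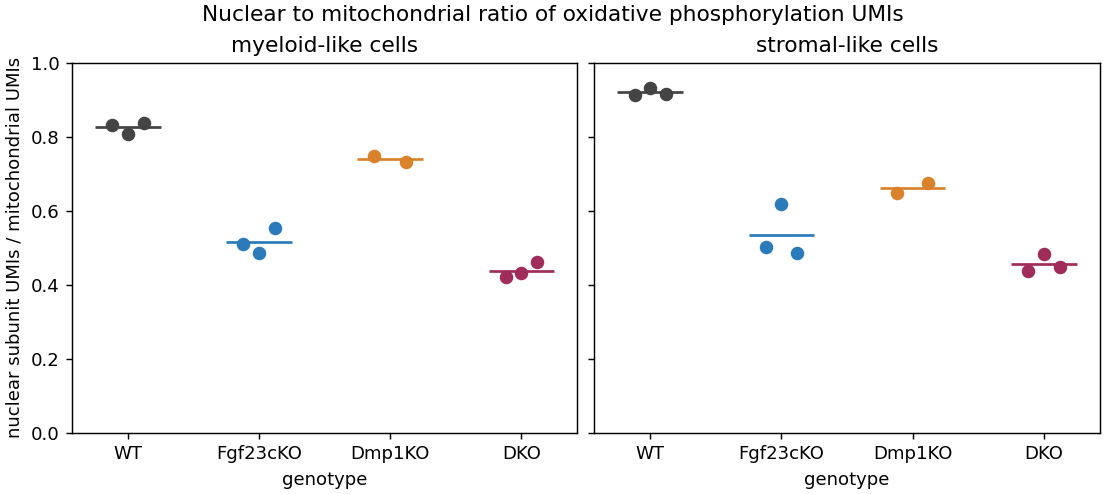
Ratio of summed nuclear to summed mitochondrial subunit CPM (vertical axis, no unit) for each tagged culture (points, with the mean of each genotype as a line), in myeloid-like and stromal-like cells. DKO cultures lie lowest at 0.420 to 0.483, and WT cultures highest at 0.809 to 0.934.

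The lower ratios went with more mitochondrial RNA in every knockout, and with less nuclear RNA in some. In myeloid-like cells the 13 mitochondrial genes summed to 25390, 26420 and 27060 CPM in WT, against 34650 to 36600 in Fgf23cKO, 35800 and 37030 in Dmp1KO and 35990 to 37820 in DKO. The nuclear subunit genes summed to 21170, 21370 and 22640 CPM in WT, 17680 to 19400 in Fgf23cKO and 15900 to 16580 in DKO, but 26230 and 27750 in Dmp1KO. Dmp1KO myeloid-like cells thus had the highest sums of nuclear subunit RNA, and DKO cells the lowest. The TMM factors of the Dmp1KO myeloid-like sums raised their values by 0.26 on the log2 scale against WT, while the other genotypes moved by at most 0.04 in size. In plain CPM the nuclear sums were 23200 and 22850 in Dmp1KO against 21640 to 22930 in WT, groups that overlap, and the mitochondrial sums were 30960 and 31180 in Dmp1KO.

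In stromal-like cells the mitochondrial genes summed to 26870, 27020 and 29350 CPM in WT, 39740 to 42090 in Fgf23cKO, 35340 and 35410 in Dmp1KO and 42190 to 43310 in DKO. Every knockout culture was above every WT culture. The nuclear subunit genes summed to 24520, 25230 and 26870 CPM in WT, 19890 to 24580 in Fgf23cKO, 22940 and 23830 in Dmp1KO and 18990 to 20390 in DKO. On the nuclear side DKO was below WT, while the place of the other knockouts depended on scaling. With TMM factors Fgf23cKO overlapped WT through its culture 2, and in plain CPM Dmp1KO, at 24010 and 24290, overlapped WT at 24090 to 24730 while Fgf23cKO was at 20550 to 24000.

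The 13 mitochondrial genes did not move together. They are made from long transcripts of both strands that are cut into the separate messages, and mt-Atp8 with mt-Atp6, and mt-Nd4l with mt-Nd4, stay joined in shared messages. On the mm10 build mt-Atp8 covers chrM:7766-7969 and shares 43 bases with mt-Atp6, which covers chrM:7927-8607. The gene mt-Nd4l covers chrM:9877-10173 and shares 7 bases with mt-Nd4, which covers chrM:10167-11544. The gene mt-Nd6, at chrM:13552-14070, is the only one of the 13 on the minus strand. The sequences of the junctions and of the end of mt-Nd6 are shown because the mitochondrial genes that fell most in Dmp1KO and DKO lie there. Capitals mark bases shared by genes of the same strand. The third stretch, from the minus strand, has none marked, although it overlaps the end of mt-Nd5 (chrM:11742-13565) on the plus strand.
mt-Atp8 into mt-Atp6, chrM:7897-7999, plus strand: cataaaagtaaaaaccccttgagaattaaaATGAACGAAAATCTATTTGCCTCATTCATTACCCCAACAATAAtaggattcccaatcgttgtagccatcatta
mt-Nd4l into mt-Nd4, chrM:10137-10203, plus strand: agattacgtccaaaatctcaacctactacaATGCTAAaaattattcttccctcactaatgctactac
mt-Nd6, last 60 bases, chrM:13552-13611, minus strand: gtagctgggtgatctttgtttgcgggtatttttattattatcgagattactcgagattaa

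In myeloid-like cells, mt-Nd1, mt-Nd2, mt-Nd3, mt-Co1, mt-Co2, mt-Co3, mt-Cytb and mt-Atp6 were called higher than in WT in all 3 knockouts. The gene mt-Nd2, a core complex I subunit, was at 1143, 1190 and 1255 CPM in WT, 1866 and 1834 in Dmp1KO, 2270, 2433 and 2291 in Fgf23cKO and 2646, 2577 and 2494 in DKO. No groups overlapped, and its log2 fold changes against WT were 0.63 in Dmp1KO, 0.96 in Fgf23cKO and 1.10 in DKO. The gene mt-Atp6, which encodes the proton-channel subunit of complex V, rose by 0.95, 0.81 and 0.89 in the same order, from 3158, 3311 and 3333 CPM in WT to 6475 and 6169 in Dmp1KO, 5575 to 5879 in Fgf23cKO and 5906 to 6162 in DKO. The catalytic complex IV subunit mt-Co1 moved least of the 8, by 0.13 in Dmp1KO, 0.28 in Fgf23cKO and 0.29 in DKO. The Dmp1KO rise of mt-Co1 turned to -0.12 without scaling factors.

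Against these, mt-Nd6 and mt-Nd4l, both membrane subunits of complex I, were called lower in all 3 knockouts. The level of mt-Nd6 in myeloid-like cells was 95.04, 99.17 and 99.68 CPM in WT, 34.54 and 33.22 in Dmp1KO, 49.96, 48.52 and 56.06 in Fgf23cKO and 32.62, 30.35 and 32.41 in DKO. Every knockout culture was below every WT culture, and the log2 changes were -1.53 ± 0.06 (SE) in Dmp1KO (edgeR adjusted p = 7.9e-11), -0.93 ± 0.06 in Fgf23cKO (adjusted p = 2.4e-08) and -1.63 ± 0.06 in DKO (adjusted p = 4.9e-11). The level of mt-Nd4l was 874, 992 and 1147 CPM in WT, 505.5 and 500.2 in Dmp1KO, 524.3, 524.5 and 507.6 in Fgf23cKO and 414.9, 409.7 and 369.5 in DKO, with log2 changes of -1.0, -0.95 and -1.34.

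The gene mt-Atp8, the other mitochondrial subunit of complex V, was lower in the cultures that lack Dmp1. It was at 220, 227.1 and 245.1 CPM in WT and 213, 220.8 and 214.2 in Fgf23cKO, which overlap, but at 87.99 and 92.61 in Dmp1KO and 132.5, 124.1 and 121.5 in DKO. It was called lower in Dmp1KO (log2 change -1.36, edgeR adjusted p = 1.3e-10) and in DKO (-0.87, adjusted p = 5.9e-09), and was -0.10 in Fgf23cKO (adjusted p = 0.15). Between DKO and Dmp1KO it was higher by 0.48 (adjusted p = 3.7e-06). The overlapping mt-Atp6 rose in the same cells. Both genes stay joined in shared messages, as do mt-Nd4l and mt-Nd4, and UMIs were counted near the 3′ end. Whether their counts stand for separate RNAs was not tested. The remaining genes mt-Nd4 and mt-Nd5 had log2 changes against WT of -0.31 to 0.08 and -0.21 to 0.13. Both were called lower in Dmp1KO, and mt-Nd5 was also called higher in Fgf23cKO and lower in DKO.

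Stromal-like cells gave the same split. The gene mt-Nd6 was at 130.4, 170.4 and 125.1 CPM in WT, 36.16 and 42.27 in Dmp1KO, 84.29, 76.07 and 111.1 in Fgf23cKO and 52.99, 43.3 and 58.4 in DKO. Its log2 changes were -1.83 ± 0.21 (SE) in Dmp1KO, -0.64 ± 0.17 in Fgf23cKO and -1.45 ± 0.17 in DKO, and all were called. The gene mt-Nd4l was at 1259, 1209 and 1345 CPM in WT against 610.2 and 629.8 in Dmp1KO, 708.5 to 832.1 in Fgf23cKO and 457.6 to 489.6 in DKO. The gene mt-Atp8 was at 200.8, 196.1 and 202.2 CPM in WT, 176.8, 150.2 and 206.3 in Fgf23cKO, 70.51 and 85.19 in Dmp1KO and 104.2, 93.17 and 109.5 in DKO, so WT and Fgf23cKO again overlapped while the Dmp1-deficient cultures were below both. The gene mt-Atp6 rose from 3490, 3464 and 3633 CPM in WT to 6442 and 6494 in Dmp1KO, 7015 to 7337 in Fgf23cKO and 7599 to 7929 in DKO. Here mt-Co1 was not called in any knockout. The genes mt-Nd4 and mt-Nd5 were again called lower in Dmp1KO. Their levels were 2528 and 2480 CPM against 3486 to 3764 in WT, and 541.5 and 522.5 against 687.6 to 742.2.

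**Figure D2:**
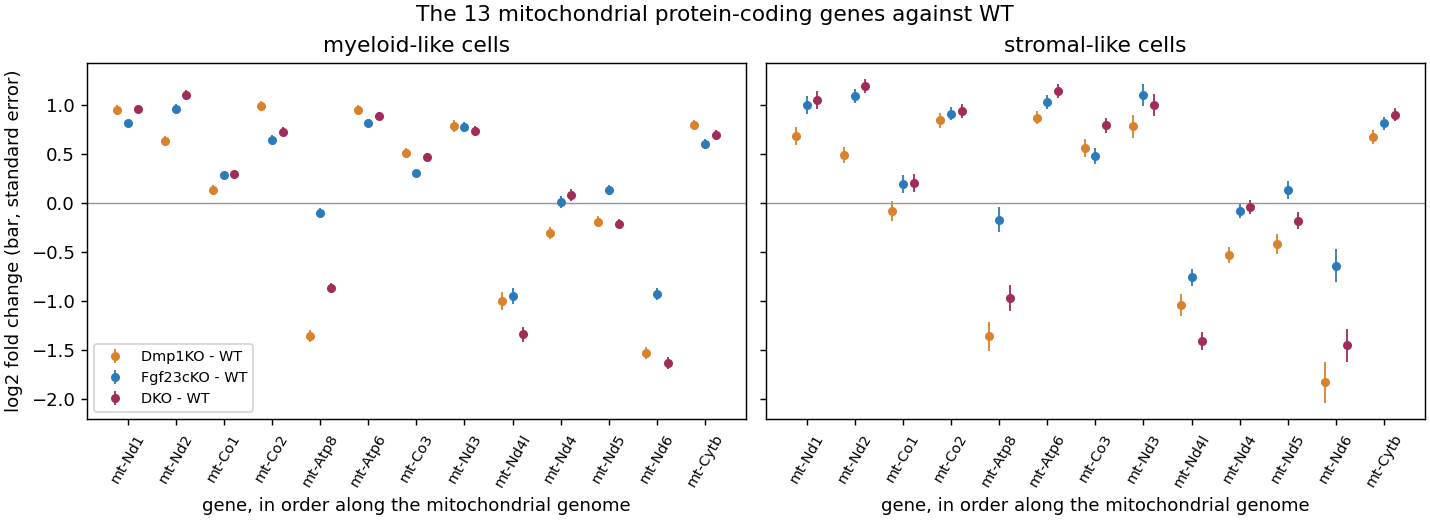
Log2 fold change against WT (vertical axis, bars give the SE) of the 13 mitochondrial genes in their order along the genome (horizontal axis) for the 3 knockouts (colours), in myeloid-like and stromal-like cells. mt-Nd6 and mt-Nd4l lie below 0 in all 3 knockouts of both classes, mt-Atp8 lies at -0.87 or lower in Dmp1KO and DKO and near 0 in Fgf23cKO, and mt-Nd1, mt-Nd2 and mt-Atp6 lie above 0.

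Nuclear genes in myeloid-like cells moved upward in Dmp1KO and downward in DKO. In Dmp1KO against WT, 68 of 94 nuclear genes tested were higher and 12 lower, with a median log2 change of 0.42 beside 0 for all genes. With the mitochondrial genes, 76 of 107 were higher and 17 lower, beside 35.7% higher and 34.3% lower among all genes tested. Most of the rise was spread over complexes I, III and V: 30 of 36 complex I genes were higher and 3 lower (median 0.46), as were 7 and 0 of 8 in complex III (0.45), 13 and 2 of 17 in complex V (0.35) and 8 and 0 of 12 assembly factors (0.48). Complex IV had 8 higher and 5 lower of 16 (0.21), and complex II 2 higher and 1 lower of 4. Without scaling factors the nuclear counts were 49 higher and 26 lower (median 0.16 beside -0.26 for all genes). Without clusters 3, 10 and 11, members split into 44 higher and 45 lower. Clusters 10 and 11 were the cycling ones. Cluster 3, with 35% of the Dmp1KO cells, was left out for 1 osteoclast marker, Dcstamp, among its 10 leading genes. Without Dmp1KO culture 2 the 17 lower became 11.

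Among the genes with the largest rises in Dmp1KO was Uqcrfs1, the Rieske iron-sulfur protein of complex III. It was at 50.63, 50.89 and 49.72 CPM in WT, 127.1 and 112.2 in Dmp1KO, 65 to 70.68 in Fgf23cKO and 64.86 to 68.21 in DKO. Dmp1KO stood above all other cultures, and the log2 change was 1.25 ± 0.06 (SE, edgeR adjusted p = 2.8e-10). Atp5f1, the stalk subunit b of complex V, rose by 1.23, from 143.1, 140.4 and 151.4 CPM to 353.5 and 328.8. Cox7a2l, which helps join complexes III and IV into supercomplexes, rose by 1.22, from 116, 117.6 and 120.2 to 278.7 and 272.4 CPM. All of these were also called higher in Fgf23cKO and DKO, by smaller amounts (0.43 and 0.39, 0.74 and 0.59, 0.44 and 0.57). Complex I contributed Ndufv1, the subunit that takes electrons from NADH (1.20), Ndufb5 (1.16), Ndufa8 (1.16) and Ndufa9 (1.11, chosen after its values were seen).

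In Fgf23cKO myeloid-like cells the nuclear genes leaned down. Of 94 tested, 25 were higher and 44 lower (median -0.11), and over all members 34 were higher and 46 lower, beside 25% higher and 24.5% lower among all genes. Complex I was balanced, with 15 higher and 15 lower (median 0.04). Complex IV had 2 higher and 11 lower (-0.33), complex V 4 and 9 (-0.21) and complex III 2 and 5 (-0.24). In DKO the lean was larger: 20 of 94 nuclear genes were higher and 50 lower (-0.18), and over all members 28 were higher and 54 lower, beside 29.1% and 29.5% of all genes. With thinned cells the members higher were 14 in Fgf23cKO and 17 in DKO. Complex IV fell in 12 of 16 genes (median -0.54), complex III in 6 of 8 (-0.45), complex V in 10 of 17 (-0.40) and complex I in 17 of 36 with 11 higher (-0.03).

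Among the genes with the largest falls in DKO were accessory subunits. Atp5k, subunit e of complex V, was at 480.6, 491.4 and 542.9 CPM in WT, 400.4 and 385.7 in Dmp1KO, 274.6, 278.8 and 317.5 in Fgf23cKO and 213.8, 209.1 and 212.9 in DKO. The 4 genotypes did not overlap, and the log2 change in DKO was -1.25 ± 0.06 (SE, edgeR adjusted p = 6.7e-10). Cox6c, an accessory subunit of complex IV, was at 956, 1007 and 1052 CPM in WT, 752.3 and 735.3 in Dmp1KO, 546.8 to 579.8 in Fgf23cKO and 467.8 to 479.8 in DKO, with log2 changes of -0.43, -0.85 and -1.08. Ndufc1, an accessory subunit of complex I, fell by 0.76 in Fgf23cKO and 1.09 in DKO, while its Dmp1KO change was -0.13 (adjusted p = 0.14). Ndufb1-ps, which the annotation lists as a non-coding RNA at a bidirectional promoter (chr12:101968090-101977068, mm10), went the same way, from 608.4, 618.8 and 684.5 CPM in WT to 276.5, 269.8 and 276 in DKO. Its symbol names a pseudogene, and how its reads were split from those of Ndufb1 copies was not tested.

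Against Dmp1KO, nearly all nuclear genes of DKO myeloid-like cells were lower: 90 of 94 fell and 1 rose, with a median log2 change of -0.68 beside -0.04 for all genes. Over all members 92 were lower and 5 higher, beside 37.2% and 30.9% of all genes. All 36 complex I, all 8 complex III and all 17 complex V genes were lower, as were 14 of 16 in complex IV, 11 of 12 assembly factors and 3 of 4 in complex II. Examples were Atp5mpl, a small proteolipid of complex V (-1.09), Ndufa2 (-0.97), Atp5e, subunit epsilon (-0.97), and Uqcrh, the hinge protein of complex III (-0.92). Without scaling factors 78 nuclear genes were still lower and 4 higher (median -0.39 beside 0.26 for all genes). Of the mitochondrial genes, 4 were higher and 2 lower, with a median of -0.04, the same as for all genes. Without scaling factors they were 11 and 0, beside 51.7% and 21.6% of all genes. Their median was then 0.26, again the same as for all genes. Within single clusters the fall of the nuclear genes varied. It took in 66 of 91 in cluster 10 (median -0.45) and 68 of 91 in cluster 11 (-0.48), but 47 of 94 in cluster 1 (-0.16) and 7 of 92 in cluster 6 (-0.11), where all genes called lower made up 18.5%, 17.5%, 12.1% and 1.98%. In cluster 6, 11 of 41 genes named for this comparison had the opposite direction, and the mitochondrial genes were 9 higher and 0 lower there and 9 and 1 in cluster 1.

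Complex II has no mitochondrial subunit, and its 4 genes differed among themselves. Sdha, its flavoprotein, was at 101.3, 101.4 and 104.9 CPM in WT, 103.2, 104.5 and 100.3 in Fgf23cKO, 97.02 and 94.62 in Dmp1KO and 102.7, 102.4 and 99.8 in DKO, and its change of -0.10 in Dmp1KO was called (edgeR adjusted p = 0.08). Sdhb, the iron-sulfur subunit, rose by 0.83 in Dmp1KO, from 125.9, 113.1 and 121.8 to 225.6 and 202.1 CPM, and its changes of -0.11 in Fgf23cKO and -0.08 in DKO were not called. Sdhd, a membrane anchor, rose in all 3, by 0.30 to 0.61.

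Ribosomal protein RNA moved with the nuclear genes in myeloid-like cells: its sum was 105400 to 108900 CPM in WT, 91150 to 100300 in Fgf23cKO, 156400 to 166600 in Dmp1KO and 79660 to 82070 in DKO. Osteoclast markers summed to 937.7 to 1139 CPM in Dmp1KO against 145.1 to 335.9 elsewhere, and cell cycle markers to 3046 to 3594 against 2094 to 2402 in WT and 1577 to 1863 in DKO. The nuclear RNA Malat1 was at 21730 to 23410 CPM in WT and 10780 to 13500 in the knockouts. The part of these differences in the results was not tested, beyond the values without clusters 3, 10 and 11.

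**Figure D3:**
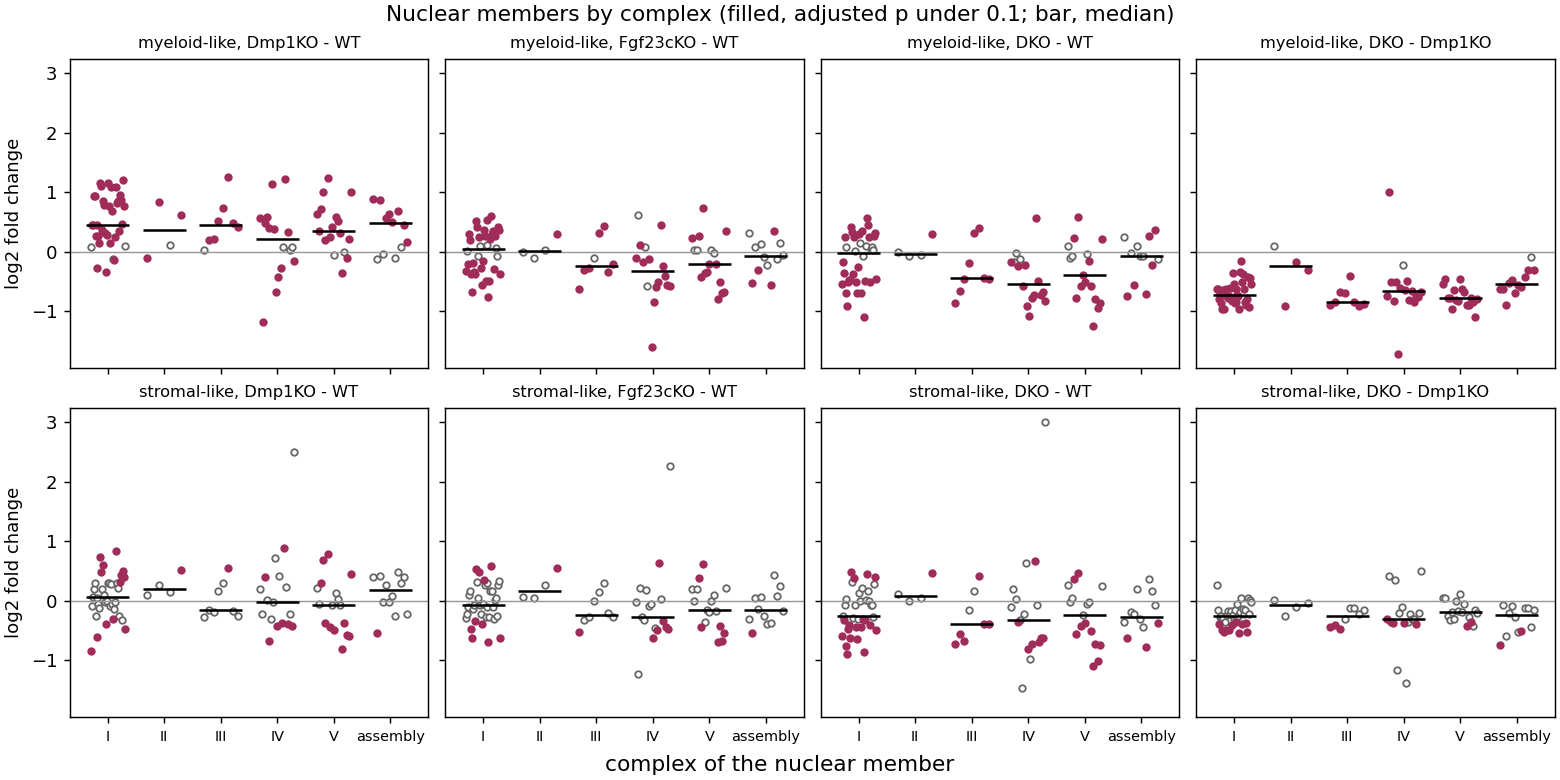
Log2 fold change (vertical axis) of each nuclear gene tested (points, filled where the adjusted p is under 0.1), grouped by complex (horizontal axis) for each comparison and class, with medians as bars. In myeloid-like cells the medians of complexes I to V and the assembly factors lie between 0.21 and 0.48 for Dmp1KO against WT and between -0.85 and -0.24 for DKO against Dmp1KO.

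In stromal-like cells, of which there were 40 to 128 per culture, fewer genes passed the test. The clusters of this class also differed by genotype. Cluster 9 held 25.8% of the WT, 41.8% of the Fgf23cKO, 48.3% of the DKO and 55.4% of the Dmp1KO cells, and the osteoblast-led clusters 14 and 16 held 17.1% and 21.9% in WT, 6.72% and 14.2% in Fgf23cKO, 4.06% and 17.3% in DKO and 2.59% each in Dmp1KO. Clusters 9 and 14 were shallow, with medians of 2814 and 965 UMIs per cell over all samples. Dmp1KO against WT had 16 of 95 nuclear genes higher and 19 lower (median 0.02), and over all members 23 higher and 24 lower, beside 11.2% and 13.6% of all genes. Without scaling factors the nuclear genes leaned the other way, with 25 higher and 14 lower (median 0.13 beside 0.07 for all genes). The counts rest on the 2 Dmp1KO cultures: the 23 higher became 15 and 13 without culture 2 or 3, and the 24 lower became 9 and 12, or 14 without WT culture 3. Fgf23cKO against WT had 8 nuclear genes higher and 19 lower (-0.10), and over all members 15 and 21, beside 7.48% and 7.95%. DKO against WT had 9 higher and 38 lower (-0.25), and over all members 16 and 41, beside 9.45% and 11%. With cells thinned to 1300 UMIs the members lower fell from 24 to 5 in Dmp1KO, from 21 to 2 in Fgf23cKO and from 41 to 6 in DKO, and the members higher in Dmp1KO from 23 to 12. At full depth the DKO falls took in 15 of 36 complex I, 5 of 8 complex III, 6 of 17 complex IV and 8 of 17 complex V genes.

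The same accessory subunits led in stromal-like cells. Atp5k fell by 0.82 in Dmp1KO, 0.70 in Fgf23cKO and 1.10 in DKO (edgeR adjusted p = 0.0015, 0.0033 and 0.00015). Ndufa3, an accessory subunit of complex I, was at 360.5, 416.6 and 430.8 CPM in WT, 261.2 and 266 in Dmp1KO, 253.8, 297.4 and 228.6 in Fgf23cKO and 204.2, 227.2 and 217.1 in DKO, with every knockout culture below WT, although its Dmp1KO change turned from -0.61 to 0.08 with thinned cells. Atp5md, a small complex V subunit, was at 598.3, 686.2 and 700.4 CPM in WT and 317.3, 341.2 and 327.2 in DKO (log2 change -1.01). Higher in all 3 knockouts were Atp5f1, with log2 changes of 0.78 in Dmp1KO, 0.61 in Fgf23cKO and 0.47 in DKO, Ndufa8 (0.73, 0.53 and 0.48) and Cox7a2l (0.88, 0.63 and 0.66). Against Dmp1KO, DKO stromal-like cells had 5 members higher and 24 lower, beside 6.03% and 4.61% of all genes. When Dmp1KO culture 2 or 3 was left out no member was called lower, and 9 to 12 were without any of the DKO cultures. With thinned cells the counts were 2 higher and 0 lower. The 5 higher became 1 to 3 without any of those cultures or without WT culture 1. The 5 higher were mitochondrial genes, among them mt-Nd2 (0.69) and mt-Nd4 (0.49), and the lower ones included Ndufc1 (-0.54), Ndufs7 (-0.52) and the assembly factor Ndufaf1 (-0.75).

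Subunits with tissue-specific forms were read mainly in their common form. In myeloid-like cells Cox4i2, Cox6a2, Cox6b2 and Cox7a1, forms known from lung, muscle or testis, stood at 0.4912 to 10.88 CPM. Cox6a2 was called higher in Dmp1KO (log2 change 1.14) and lower in DKO (-0.57), from 5.931, 4.035 and 3.522 CPM in WT to 10.88 and 8.081 and to 2.826 to 2.966. The rise in Dmp1KO was -0.08 without clusters 3, 10 and 11. Ndufa4l2, a form of Ndufa4 known to respond to low oxygen, was at most 0.4652 CPM in myeloid-like cells. In stromal-like cells it varied within genotypes, at 0.70, 28.0 and 3.69 CPM in WT, 91.0, 0.33 and 15.9 in Fgf23cKO, 61.0 and 30.6 in Dmp1KO and 50.3, 83.2 and 56.5 in DKO, and its DKO change of 3.0 ± 1.2 (SE) was not called (edgeR adjusted p = 0.12).

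The change of a nuclear gene varied with the length of its coding sequence. In DKO against WT myeloid-like cells, 43 of 57 genes with at most 500 coding bases were lower and 6 higher (median log2 change -0.50), while of 36 longer genes 6 were lower and 14 higher (0.08). Fgf23cKO against WT gave 39 lower and 9 higher of the short genes (-0.29) and 4 lower and 16 higher of the long ones (0.18). Dmp1KO against WT gave medians of 0.27 and 0.72. Across the 93 nuclear genes with a length, Spearman's rho between length and log2 change was 0.72 in DKO, 0.68 in Fgf23cKO and 0.54 in Dmp1KO, given as a description since genes of 1 library share its depth. In stromal-like cells rho was 0.63, 0.52 and 0.51 over 94 genes, and 34 of the 58 short genes fell in DKO (-0.41) against 3 of 36 long ones (0.04).

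Other genes of the same length range showed rho between -0.17 and 0.06 for the comparisons with WT in myeloid-like cells and between -0.10 and 0.06 in stromal-like cells. Among other genes with at most 500 coding bases, 45.7% were lower in DKO myeloid-like cells and 27.1% of the longer ones, and 20.9% and 9.56% in stromal-like cells. DKO against Dmp1KO showed a weaker relation, with 55 of 57 short genes lower and 34 of 36 long ones in myeloid-like cells (rho 0.34), beside 0.25 for other genes. Within single clusters rho for DKO against WT was 0.66 to 0.76 in clusters 6, 10 and 11, 0.61 in cluster 13, and 0.30 in clusters 1 and 9. In cluster 6 for example, 37 of 56 short genes were lower and 4 higher (median -0.47), while of 35 long genes 3 were lower and 11 higher (0.11).

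**Figure D4:**
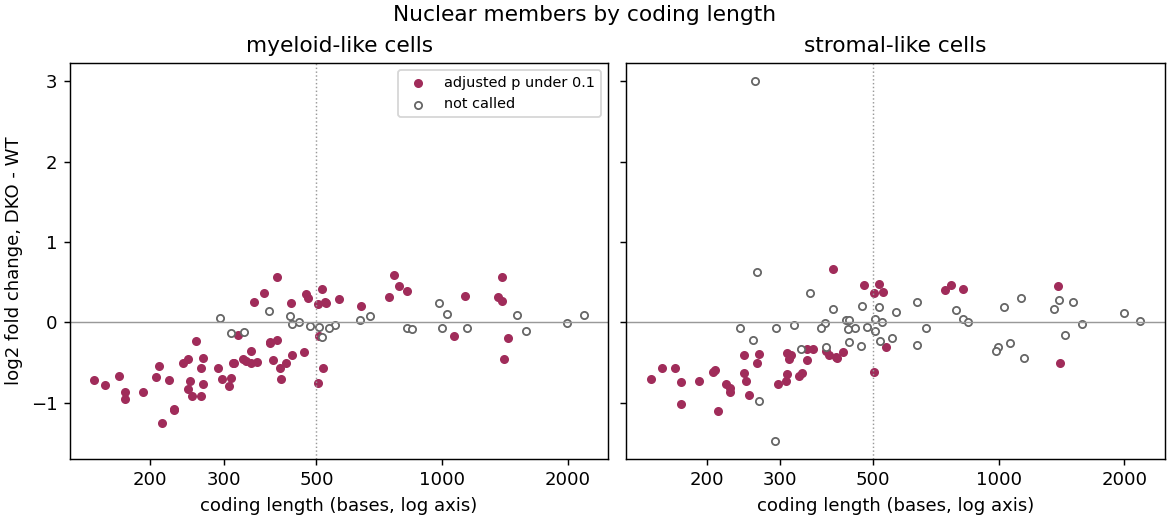
Log2 fold change of DKO against WT (vertical axis) of each nuclear gene by coding length in bases (horizontal log axis), in myeloid-like and stromal-like cells. Filled points have an adjusted p under 0.1, the dotted line marks 500 bases, and the genes left of it have medians of -0.50 and -0.41 against 0.08 and 0.04 right of it.

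Promoters are shown for a pair of genes that fell and a pair that rose, since members of both kinds hold the same motifs. RefSeq promoter windows on GRCm38, from 250 bases before to 50 after the start, matched 79 of the 111 genes. The core GCATGCGC of the NRF1 site, searched on both strands, was in 12 of the 79 windows (15.2%) and in 3.05% of 27025 windows of all genes. AAGATGGC, the core of the YY1 site, was in 10 (12.7%) and in 3.19%, and the ETS site CCGGAAGT in 5 (6.33%) and in 4.31%. Any of the 3 was in 26 (32.9%) and in 9.91%. Capitals mark matches, which are descriptions of the letters and not of binding. In Atp5k the core is read on both strands and the matches overlap.
Atp5k, chr5:108434350-108434649, minus strand: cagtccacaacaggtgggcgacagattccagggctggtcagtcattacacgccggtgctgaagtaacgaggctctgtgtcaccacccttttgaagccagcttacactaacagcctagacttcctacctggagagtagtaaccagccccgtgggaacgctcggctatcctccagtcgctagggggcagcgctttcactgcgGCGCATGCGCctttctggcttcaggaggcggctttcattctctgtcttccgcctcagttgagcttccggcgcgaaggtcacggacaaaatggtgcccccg
Ndufc1, chr3:51408906-51409205, minus strand: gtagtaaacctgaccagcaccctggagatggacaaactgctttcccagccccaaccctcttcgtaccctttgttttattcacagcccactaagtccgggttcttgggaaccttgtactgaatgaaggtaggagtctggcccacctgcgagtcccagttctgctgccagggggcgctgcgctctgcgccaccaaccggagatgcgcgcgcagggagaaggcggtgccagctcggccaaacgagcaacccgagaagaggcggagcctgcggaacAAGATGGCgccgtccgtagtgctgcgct
Ndufa8, chr2:36049289-36049588, minus strand: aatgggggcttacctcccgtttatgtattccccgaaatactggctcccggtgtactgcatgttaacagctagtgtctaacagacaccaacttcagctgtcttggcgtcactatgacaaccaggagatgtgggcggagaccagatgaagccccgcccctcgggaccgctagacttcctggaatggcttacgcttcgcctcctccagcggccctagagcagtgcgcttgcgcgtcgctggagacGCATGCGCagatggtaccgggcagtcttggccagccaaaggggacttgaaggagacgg
Ndufa9, chr6:126849095-126849394, minus strand: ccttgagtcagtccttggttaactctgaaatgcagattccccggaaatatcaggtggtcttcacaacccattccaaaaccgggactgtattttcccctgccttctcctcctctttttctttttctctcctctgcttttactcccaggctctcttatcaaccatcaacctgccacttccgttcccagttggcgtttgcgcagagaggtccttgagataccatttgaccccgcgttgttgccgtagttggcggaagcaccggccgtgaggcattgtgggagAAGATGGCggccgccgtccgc
Atp5k fell and Ndufa8 rose in every knockout of both classes with an NRF1 core in each window. Ndufc1 fell and Ndufa9 rose in Fgf23cKO and DKO myeloid-like cells with the YY1 core in each.

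Because the clusters that make up the myeloid-like class differed by genotype, the fits were repeated in single clusters, a choice made after the class values were seen. In cluster 6, led by Slc7a11 and Procr, the nuclear to mitochondrial ratio was 0.902 to 0.954 in WT, 0.708 to 0.753 in Dmp1KO, 0.479 to 0.573 in Fgf23cKO and 0.456 to 0.481 in DKO, and 41 of 92 nuclear genes were lower and 15 higher in DKO against WT, beside 17.6% and 17.2% of all genes. In the cycling clusters 10 and 11 the ratios were 1.073 to 1.138 and 1.177 to 1.204 in WT, 0.817 to 0.830 and 0.880 to 0.911 in Dmp1KO, 0.563 to 0.710 and 0.607 to 0.803 in Fgf23cKO and 0.524 to 0.617 and 0.563 to 0.698 in DKO. In cluster 13, stromal-like and led by Pappa, Col8a1 and Ebf1, they were 0.936 to 1.008 in WT, 0.646 to 0.660 in Dmp1KO, 0.508 to 0.629 in Fgf23cKO and 0.422 to 0.473 in DKO. The order of the genotype means was that of the class in these 4 clusters, and Fgf23cKO overlapped DKO in clusters 6, 10 and 11.

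Clusters 1 and 9 differed. In cluster 1, led by Egr3 and F13a1, the WT ratio was 0.416 to 0.655 and spanned the DKO range of 0.388 to 0.434 in part. Dmp1KO, at 0.613 and 0.573, lay within the WT range, and its mean was above that of WT, unlike in the class. Of 94 nuclear genes, 29 to 49 were higher than WT in each knockout and none lower. Of all genes, 6.64% to 7.81% were higher. WT had only 11 to 19 cells per culture there. Stromal-like cluster 9 was a shallow cluster led by Grem1, Mgp and Tagln. Its myeloid markers summed to 13220 CPM beside 24150 for its stromal markers, against 5411 and 38260 in cluster 13. Its ratios were 0.70 to 0.88 in WT, 0.64 and 0.91 in Dmp1KO, 0.46 to 0.66 in Fgf23cKO and 0.32 to 0.38 in DKO. The Dmp1KO mean was again above that of WT. Of 85 nuclear genes, 17 were higher in Dmp1KO, 13 in Fgf23cKO and 22 in DKO, and at most 1 was lower. Of all genes, 5.93%, 7.06% and 12.9% were higher and 2.19%, 4.16% and 10.1% lower. The fall of nuclear genes in Fgf23cKO and DKO against WT was thus seen in clusters 6, 10, 11 and 13 and not in clusters 1 and 9. The rise of the Dmp1KO nuclear genes was seen in clusters 1, 9, 10 and 11, while they had 13 higher and 8 lower in cluster 13, beside 6.11% and 6.45% of all genes, and 12 higher and 25 lower in cluster 6, beside 7.72% and 10.6%.

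**Figure D5:**
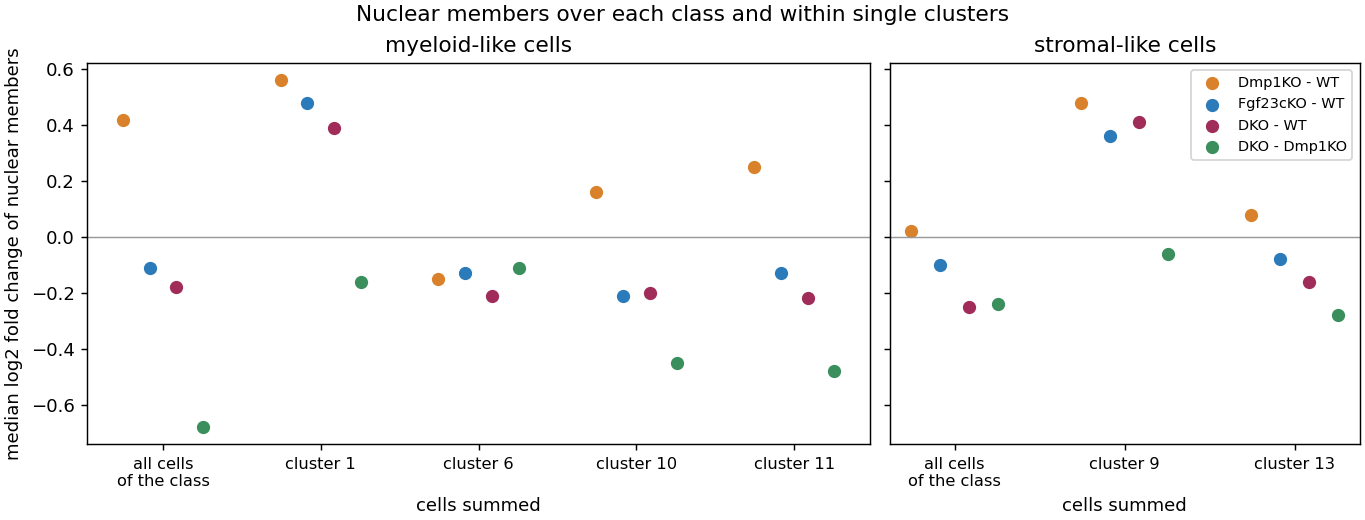
Median log2 fold change of the nuclear genes (vertical axis) in each comparison (colours), over all cells of a class and within single clusters (horizontal axis). The medians for DKO against WT are above 0 in clusters 1 (0.39) and 9 (0.41) and below 0 in clusters 6, 10, 11 and 13 (-0.22 to -0.16).

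Whether a genotype effect differed between stromal-like and myeloid-like cells was tested in a fit over both classes with a term for each culture, with 109 members tested. For DKO against Dmp1KO, 66 members had a higher log2 change in stromal-like than in myeloid-like cells and none a lower one (median difference 0.46 beside 0.10 for all genes), beside 15.8% and 5.96% of all genes. They included 26 of 36 complex I and 16 of 17 complex V genes. Atp5mpl led, with changes of -0.15 in stromal-like and -1.09 in myeloid-like cells and a difference of 0.98 ± 0.14 (SE, edgeR adjusted p = 0.00032), followed by Ndufa1 (0.94) and Cox6a1 (0.90). For Dmp1KO against WT, 31 members had a lower change in stromal-like cells and 1 a higher one, beside 9.92% and 4.54%, among them Cox6a1 (-1.03), Ndufa1 (-0.91) and Ndufb5 (-0.84). For DKO against WT the test called 1 member, Cox6b2 (1.70 ± 0.41 SE, adjusted p = 0.043), beside 1.91% higher and 1.57% lower, and for Fgf23cKO against WT none, beside 0.694% and 0.721%. In Fgf23cKO against WT, 12 of 109 members had an unadjusted p under 0.05 in edgeR, the tool used for this fit. Of all genes tested, 1726 of 14843 did, a share near that of the members. Cox6b2 was not called without DKO culture 1 or 2 or without WT culture 1 or 2.

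The counts changed with scaling and depth. Without scaling factors, which shifts all genes alike, the 66 became 10 and the 31 became 5. These were 9.17% of members beside 7.22% of all genes, and 4.59% beside 4.34%, both near the share of all genes. In the opposite directions, 0.917% of members were called beside 18.5% of all genes, and 6.42% beside 14.3%. The median difference of the members was 0.09 beside -0.26 for all genes in DKO against Dmp1KO and -0.03 beside 0.24 in Dmp1KO against WT (with the factors, -0.37 beside -0.10). With cells thinned to 1300 UMIs the 66 became 8 and the 31 became 0, and the 1 member higher in DKO against WT became 21. Without Dmp1KO culture 2 they were 14 and 5, the 66 became 38 without DKO culture 2, and the 31 became 16 without WT culture 3.

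Other genes of mitochondrial and glucose metabolism moved as follows. Of 14 glycolysis genes, 12 were higher and 1 lower in Dmp1KO myeloid-like cells (median log2 change 1.06), 12 and 1 in Fgf23cKO (0.48) and 9 and 1 in DKO (0.27). Gapdh rose by 1.71, 0.80 and 0.72, and Ldha, which makes lactate, by 1.21, 0.49 and 0.26. Among all genes in myeloid-like cells, 35.7% were higher and 34.3% lower in Dmp1KO, 25% and 24.5% in Fgf23cKO and 29.1% and 29.5% in DKO. In stromal-like cells 9, 8 and 11 of the 14 were higher and 1, 0 and 0 lower. Of all genes there, 11.2%, 7.48% and 9.45% were higher and 13.6%, 7.95% and 11% lower. In DKO stromal-like cells, where 11 glycolysis genes were higher, 38 of 95 nuclear subunit and assembly genes were lower and 9 higher.

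The 78 mitochondrial ribosomal protein genes gave 68 higher and 0 lower in Dmp1KO myeloid-like cells (median 0.70), 31 and 10 in Fgf23cKO, 21 and 22 in DKO, and 76 lower and 0 higher in DKO against Dmp1KO. In Fgf23cKO and DKO against WT they did not lean down as the nuclear subunit genes did (medians 0.11 and -0.02 against -0.11 and -0.18). Their 26.9% higher and 28.2% lower in DKO were near the 29.1% and 29.5% of all genes. Of all genes in myeloid-like cells, 35.7% were higher and 34.3% lower in Dmp1KO and 25% and 24.5% in Fgf23cKO. For DKO against Dmp1KO these shares were 30.9% and 37.2%. Of the 13 genes of the TCA cycle, 9 were higher and 2 lower in Dmp1KO and 5 and 6 in DKO. Cytochrome c and carrier genes were higher in 8 of 8 in Dmp1KO, 4 in Fgf23cKO and 3 in DKO, with Cycs itself at 0.48, -0.06 (edgeR adjusted p = 0.59) and -0.34. Assembly factors outside the symbol rule had 13 of 27 higher and 4 lower in Dmp1KO. In DKO 8 were higher and 6 lower (29.6% and 22.2%), near or below the shares of all genes. Of 14 genes for copying and reading the mitochondrial genome, 3 were higher and 5 lower in Dmp1KO (21.4% and 35.7%). They were 1 and 4 in Fgf23cKO (7.14% and 28.6%) and 1 and 5 in DKO (7.14% and 35.7%). The shares lower were near those of all genes. Tfam, which packages that genome, rose by 0.48, 0.35 and 0.34. In stromal-like cells, 24 mitochondrial ribosomal genes were higher and 5 lower in Dmp1KO and 4 and 9 in DKO. Of all genes there, 11.2% were higher and 13.6% lower in Dmp1KO and 9.45% and 11% in DKO.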

How the data were processed

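Gene by cell tables of UMI counts were deposited by the authors for 15 samples. Per the labels and the study's methods, they had made them with Cell Ranger 7.0.1 on mm10, splitting each pool by CellPlex tag, so that multiplets between cultures were removed. No further doublets were called. The matrices are unnormalised counts, with 1 count per UMI near the 3′ end. Genes sharing near-identical copies may have lost reads, which was not tested.

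Cells were normalised with sctransform 0.4.2 and clustered in Seurat 5.3.0 with 30 principal components and a resolution of 0.8 over 3000 variable genes, members left out. A cluster took a name from at least 3 detected markers of a list that summed above the other list. It also needed enough depth or a marker of the list among its 10 leading genes. Those genes could hold no more markers of another cell type than of its own. With the members kept in, 96.04% of cells kept their class. The remaining 5561 cells stayed unnamed. They included clusters 4 and 5, mostly Dmp1KO, with myeloid markers at 55780 and 51310 CPM. Cluster 15, led by Mmp9, Acp5 and Ocstamp, was unnamed too. Unnamed cells made up 39.3% and 39.8% of the Dmp1KO cultures and 16.9% to 21% of the WT cultures. They were 28.9% to 41.9% in Fgf23cKO and 18.4% to 23.2% in DKO. No cell was filtered out in the main fits. The UMIs of each class were added up within every tagged culture and tested with edgeR 4.0.16 (R 4.3.3, filterByExpr, TMM factors, quasi-likelihood test), each culture needing at least 10 cells of the class. These sums ranged from 6695051 to 46264325 UMIs in myeloid-like and from 897503 to 6618890 in stromal-like cells, which limits the calls in the latter. DESeq2 1.42.0, other scalings and filters, thinning, single clusters and leaving out cultures were alternatives. The scripts were tested on simulated data.

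Named genes were all 13 mitochondrial genes, the Sdh subunits, the paired isoforms and, for each class and comparison, up to 10 called members with the largest changes and no overlap between cultures. The members and all lists were chosen with earlier results of these data known. Whether the tagged cultures came from separate mice is stated by the study, not by the labels. 1 gene among those the rule names is not reported here.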

Additional observations from a re-analysis of the deposited data

Results flagged for a closer look

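The effect of genotype on members differed between stromal-like and myeloid-like cells in the edgeR test of that difference for 66 members in DKO against Dmp1KO, for 32 in Dmp1KO against WT and for 1 in DKO against WT. Of all genes, 15.8% were higher and 5.96% lower, 4.54% and 9.92%, and 1.91% and 1.57% in the same order. Without scaling factors the 66 higher became 10 and the 31 lower in Dmp1KO against WT became 5, near the shares of all genes. Thinned cells also lowered these counts. Of the genes called by this test, those with the largest differences, given as the stromal-like minus the myeloid-like log2 change, were Atp5mpl (0.98), Ndufa1 (0.94) and Cox6a1 (0.90) for DKO against Dmp1KO, Cox6b2 (1.48), Cox6a1 (-1.03) and Ndufa1 (-0.91) for Dmp1KO against WT, and Cox6b2 (1.70) for DKO against WT.

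Clusters rich in mitochondrial reads were left unnamed and entered no comparison. They held 15.1%, 16.6% and 15.8% of the cells in the Fgf23cKO cultures and 10.3%, 13.6% and 12.8% in the DKO cultures, above the 2.96%, 2.87% and 5.83% of the WT cultures. Dmp1KO cultures had 3.04% and 5.69%. The ratio of nuclear to mitochondrial subunit UMIs in these clusters was 0.0097 to 0.025.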

How the results depend on the processing

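Counts are of members with an adjusted p under 0.1 unless stated, and the cause of a move was not tested except where fewer samples or UMIs entered. Leaving out single cultures gave ranges for DKO against Dmp1KO of 1 to 6 higher and 0 to 30 lower in stromal-like cells, for Dmp1KO against WT of 13 to 26 higher and 9 to 26 lower in stromal-like and 11 to 19 lower in myeloid-like cells, and for the difference between classes of 14 to 69 higher in DKO against Dmp1KO, 0 to 3 in DKO against WT, 0 to 1 higher and 5 to 43 lower in Dmp1KO against WT and 0 to 1 higher in Fgf23cKO against WT. In myeloid-like cells, DKO against Dmp1KO gave 12 higher with a broader class, 15 without scaling factors and 11 without clusters 3, 10 and 11. Without those clusters, Dmp1KO against WT gave 44 higher and 45 lower in the same cells. It gave 32 lower without scaling factors and 11 lower without a low-count filter. Thinned cells gave 17 higher in DKO and 14 in Fgf23cKO against WT. For the difference between classes, thinned cells gave 8 higher in DKO against Dmp1KO, 21 in DKO against WT, and 0 higher and 0 lower in Dmp1KO against WT, the cell filter gave 3 higher in DKO against WT, and no scaling gave 10 higher and 1 lower, 2 higher, and 7 higher and 5 lower for the same comparisons. Of all genes without scaling, 7.22% were higher and 18.5% lower, 1.83% and 1.66%, and 14.3% and 4.34% in the same order.

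In stromal-like cells, DKO against Dmp1KO gave 3 higher and 10 lower at an adjusted p under 0.05, 2 and 0 with thinned cells, 3 and 11 without a low-count filter, 8 and 58 with the untagged cells, and 3 and 13 without osteoblast-led clusters, while the cell filter gave 8 higher and clustering with the members 9. Dmp1KO against WT gave 12 higher and 5 lower with thinned cells, 38 higher with the untagged cells and 12 lower without osteoblast-led clusters. Thinned cells gave 2 lower in Fgf23cKO and 6 in DKO against WT, and the untagged cells 26 higher in Fgf23cKO. Same-numbered cultures showed little shared deviation (0 of 15 correlations over 0.1 in myeloid-like, 1 of 15 in stromal-like cells). The main fits did not pair them, and so few correlations cannot exclude a pairing. With a replicate block DKO against Dmp1KO gave 3 higher and 8 lower in stromal-like cells, and no other count moved by over 1.5 times. The class ratios became, with thinned cells, 0.398 in DKO, 0.665 in Dmp1KO and 0.739 in WT myeloid-like and 0.321 in DKO, 0.534 in Dmp1KO, 0.374 in Fgf23cKO and 0.588 in WT stromal-like cells, with the broader class 0.384, 0.453 and 0.787 in DKO, Fgf23cKO and WT, with the cell filter 0.727 in Dmp1KO and 0.988 in WT stromal-like, and without osteoblast-led clusters 0.425 in DKO and 0.939 in WT. Reversed were, without scaling, Atp5e (-0.06), Atp5mpl (-0.04), Ndufa7 (-0.12) and mt-Co1 (-0.12) in myeloid-like Dmp1KO against WT and Sdhc (0.13) and mt-Co2 (0.02) in DKO against Dmp1KO. With thinned cells they were Atp5mpl (-0.01) and Ndufa7 (-0.03) in myeloid-like and Ndufa3 (0.08), Ndufc1 (0.02) and Ndufs7 (-0.21) in stromal-like Dmp1KO against WT, and Cox6c (0.05) and Ndufaf8 (0.07) in stromal-like DKO against Dmp1KO. Without clusters 3, 10 and 11, myeloid-like Dmp1KO against WT reversed Atp5e (-0.26), Atp5mpl (-0.36), Cox6a1 (-0.16) and Cox6a2 (-0.08). Also reversed in that comparison were Ndufa2 (-0.15), Ndufa5 (-0.12), Ndufa7 (-0.16) and Ndufab1 (-0.33). Without the same clusters, DKO against Dmp1KO reversed Cox6a1 (0.02), Sdhc (0.28), Sdhd (0.11) and mt-Co2 (0.05). DESeq2 and the RLE scaling kept every count of members in the classes within 1.5 times.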

Other observations

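The samples numbered 4, read as untagged cells of each pool, entered no main test. Their nuclear to mitochondrial ratio was 0.776 in WT, 0.740 in Dmp1KO, 0.528 in Fgf23cKO and 0.420 in DKO myeloid-like cells. In stromal-like cells it was 0.928, 0.835, 0.534 and 0.538 in the same order.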
